A study of Mus musculus with 9 samples.

Results

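The genes examined here are 35 that mark the macrophages of the nervous system. Of these, 31 are listed for microglia, the macrophages inside the tissue. The other 4 (Mrc1, Lyve1, Cd163 and F13a1) are listed for border macrophages, which live in the meninges and around vessels. All 35 were taken by gene symbol from the 18193 genes that the arrays name, and each was represented by the brightest of its probe sets. RNA came from spinal cords of GAD65-GFP mice at postnatal day 6, whose GABA-making neurons carry a fluorescent reporter under the GAD65 promoter. The cord of each of 3 animals was divided into dorsal, intermediate and ventral pieces, so the 9 arrays form 3 regions with n = 3, all of the same genotype and age. The labels mention no cell sorting, and the arrays are read here as whole tissue. No treatment was given, and what the series set side by side was the region.

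Microglia enter the nervous system from the yolk sac in embryonic life, spread through the tissue and, after birth, remove dying cells, myelin debris and synapses. They survive on signals through the receptor Csf1r, sense neurons through Cx3cr1 and nucleotides through P2ry12, and secrete the 3 chains of C1q, which tag material for uptake. Border macrophages have a different expression profile, with the mannose receptor Mrc1, the hyaluronan receptor Lyve1, the haemoglobin scavenger receptor Cd163 and the transglutaminase subunit F13a1 as usual markers.

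Values are taken as log2 expression, so a difference of 1 is a 2-fold change. The lowest value of the table was 2.15, called the floor, and on each array between 36.0% and 36.3% of probe sets were within 0.01 of it. Array medians lay between 3.66 and 3.75. Mbp, of myelin, read 15.9 to 16.0 on the 9 arrays and Aqp4, of astrocytes, 14.3 to 15.0, so both were bright in every piece. Mbp is also in the list of Schwann and peripheral myelin genes used below, so it does not mark central tissue alone. A gene was called at an adjusted p under 0.05 from limma over 13959 genes, and 33 members were tested, Cd14 and Ccl3 being at the floor on all arrays.

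The label of the list holds only in part. Several of the 31 genes listed for microglia, such as Csf1r, Lyz2, Mpeg1 and Cd53, are not confined to microglia. Of the 31 microglial genes, 21 had a mean of 3 or more, among them C1qb, Ctss, Laptm5, Csf1r and Cx3cr1. The other 10 lay below 3: Tmem119 and Siglech, which are among the most microglia-specific surface markers, Trem2, the lipid receptor that signals through Tyrobp, the transcription factor Irf8, the integrin chains Itgam and Itgb2, the lysosomal Cd68, the lipopolysaccharide co-receptor Cd14, and the chemokines Ccl3 and Ccl4. Of the border genes, Cd163 was at the floor on 8 of 9 arrays and the other 3 were above 3 on average. Itgam, Cd14 and Ccl3 read the floor on every array, and Siglech and Ccl4 gave a single repeated value of 2.96 and 2.18. These genes carry no information on regions, and a value at the floor does not show that the transcript was missing.

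PU.1 is the transcription factor that macrophages need, and the letters around the start sites of members are shown as a description. Whether PU.1 has a part in the differences between regions was not tested. RefSeq promoters (GRCm38.p6, 250 bases before to 50 after the start) matched 25 of 35 members. In these, the PU.1 letters GAGGAAGT were found in 4 of 25 members (C1qc, Cd53, Ctss, F13a1) and in 3.69% of the promoters of all 27025 genes, both strands searched. The 6-letter core GAGGAA, which lies inside GAGGAAGT, was found in 16 of 25 members and 31.3% of all promoters. The composite of an ETS and an IRF site, GGAAGTGAA, whose letters can overlap GAGGAAGT, was in 1 of 25 (Ctss) against 0.755%, and TATAAA was in 4 of 25 (Ctss, Irf8, Laptm5, Ptprc) against 15.7%. Each match is a description of letters and no measure of binding, and Spi1, which encodes PU.1, had a mean of 2.18, near the floor. Below, 260 bases from 250 before to 10 after the start are given 5′ to 3′ on the gene's own strand, for 6 microglial members whose promoter holds a searched motif and which had the largest differences between intermediate and dorsal pieces. Capitals mark the matches. C1qc is at chr4:136892905-136893164 on the minus strand, Fcgr3 at chr1:171059385-171059644 on the minus strand, C1qb at chr4:136886191-136886450 on the minus strand, P2ry13 at chr3:59210873-59211132 on the minus strand, Laptm5 at chr4:130913066-130913325 on the plus strand and Ctss at chr3:95526536-95526795 on the plus strand.
C1qc: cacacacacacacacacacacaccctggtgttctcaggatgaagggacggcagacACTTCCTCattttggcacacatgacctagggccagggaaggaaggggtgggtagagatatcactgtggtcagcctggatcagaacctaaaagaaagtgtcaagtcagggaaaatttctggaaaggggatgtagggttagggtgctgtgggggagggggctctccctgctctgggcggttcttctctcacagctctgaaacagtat
Fcgr3: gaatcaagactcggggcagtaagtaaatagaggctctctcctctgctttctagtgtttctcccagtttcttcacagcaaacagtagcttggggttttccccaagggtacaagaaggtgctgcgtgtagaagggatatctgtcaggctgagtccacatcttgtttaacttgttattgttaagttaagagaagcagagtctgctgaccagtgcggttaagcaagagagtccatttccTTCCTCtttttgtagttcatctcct
C1qb: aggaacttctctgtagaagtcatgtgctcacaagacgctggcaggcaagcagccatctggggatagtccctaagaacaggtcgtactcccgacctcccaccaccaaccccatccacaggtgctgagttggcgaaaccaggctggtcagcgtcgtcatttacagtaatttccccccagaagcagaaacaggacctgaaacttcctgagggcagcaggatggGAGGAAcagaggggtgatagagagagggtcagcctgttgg
P2ry13: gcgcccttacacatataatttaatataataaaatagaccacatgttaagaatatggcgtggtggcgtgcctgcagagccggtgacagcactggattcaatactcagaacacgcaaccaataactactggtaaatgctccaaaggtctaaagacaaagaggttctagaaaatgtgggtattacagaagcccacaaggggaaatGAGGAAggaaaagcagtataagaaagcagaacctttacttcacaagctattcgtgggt
Laptm5: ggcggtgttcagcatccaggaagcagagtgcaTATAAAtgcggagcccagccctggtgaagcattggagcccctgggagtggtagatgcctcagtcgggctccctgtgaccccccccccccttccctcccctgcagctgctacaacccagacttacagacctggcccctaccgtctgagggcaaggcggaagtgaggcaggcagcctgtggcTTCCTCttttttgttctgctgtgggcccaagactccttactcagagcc
Ctss: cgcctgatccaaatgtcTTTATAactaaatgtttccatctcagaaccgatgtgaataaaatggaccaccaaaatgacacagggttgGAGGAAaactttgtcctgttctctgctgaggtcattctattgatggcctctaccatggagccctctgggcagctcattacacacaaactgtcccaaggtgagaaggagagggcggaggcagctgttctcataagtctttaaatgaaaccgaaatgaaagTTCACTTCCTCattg
With position 1 as the first transcribed base, the matches start at -195 in C1qc and at -15 in Fcgr3. In C1qb and P2ry13 the core starts at -30 and -48. C1qc and C1qb lie within the same gene cluster and, in this sample of 6, only Ctss and C1qc hold the longer PU.1 letters.

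The intermediate piece held less RNA of many members than the dorsal and the ventral piece. Intermediate against dorsal, 16 of 33 members were lower (13 microglial and 3 border macrophage) and 0 were higher, where 14.2% of all genes tested were lower and 15.9% higher; by unadjusted p under 0.05, 17 members were lower and 0 higher. Against ventral, 19 members were lower (17 and 2) and 0 higher, where 24.9% of all genes were lower and 23.4% higher; at an unadjusted p under 0.05 it was 21 lower and 0 higher. Both comparisons use the same 3 intermediate arrays, so they are not separate evidence. The median difference over the 29 microglial genes tested was -0.32 against dorsal and -0.53 against ventral, and over the 4 border genes -2.54 and -1.85 (-2.67 and -2.30 without Cd163, which was near the floor), while the median over all genes was 0.00 in both. In bulk tissue, fewer macrophages in a piece and less of these transcripts in each macrophage cannot be told apart. Many calls against dorsal were lost when an animal was left out, which leaves 2 residual degrees of freedom in place of 4. Leaving out animal 1 kept only 1 call (Lyz2), leaving out animal 2 kept 10 and leaving out animal 3 kept 0. Of all 13959 genes tested, 1903, 2454 and 1464 were then called in place of 4202 (30.1% of those tested). Counting either direction, the share of the 33 members called was below that of all genes without animal 1 and without animal 3. It was above that of all genes without animal 2. Over the fits that left out an animal or array, the medians against dorsal stayed at -0.40 to -0.25 (microglial) and -3.13 to -2.23 (border). Leaving out a single array also moved the count of members, to 9 without dorsal 1, 7 without dorsal 3, 6 without intermediate 1, 6 without intermediate 3 and 10 without ventral 1, and fitting only the dorsal and intermediate arrays left 5. In the fit of only those 2 regions, the share of members called was close to that of all genes called in either direction. Calls over all genes fell as well, to between 1464 and 3707 over the fits that left out an animal or array. Against ventral, where 48.2% of all genes were called in either direction, 8 members were called without animal 1, 9 without animal 3 and 12 without intermediate array 3. Over such fits, 4200 to 6658 of all 13959 genes were called against ventral in either direction, in place of 6731. The shares of members called without animal 1 and without animal 3 were below the lowest of these.

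**Figure D1:**
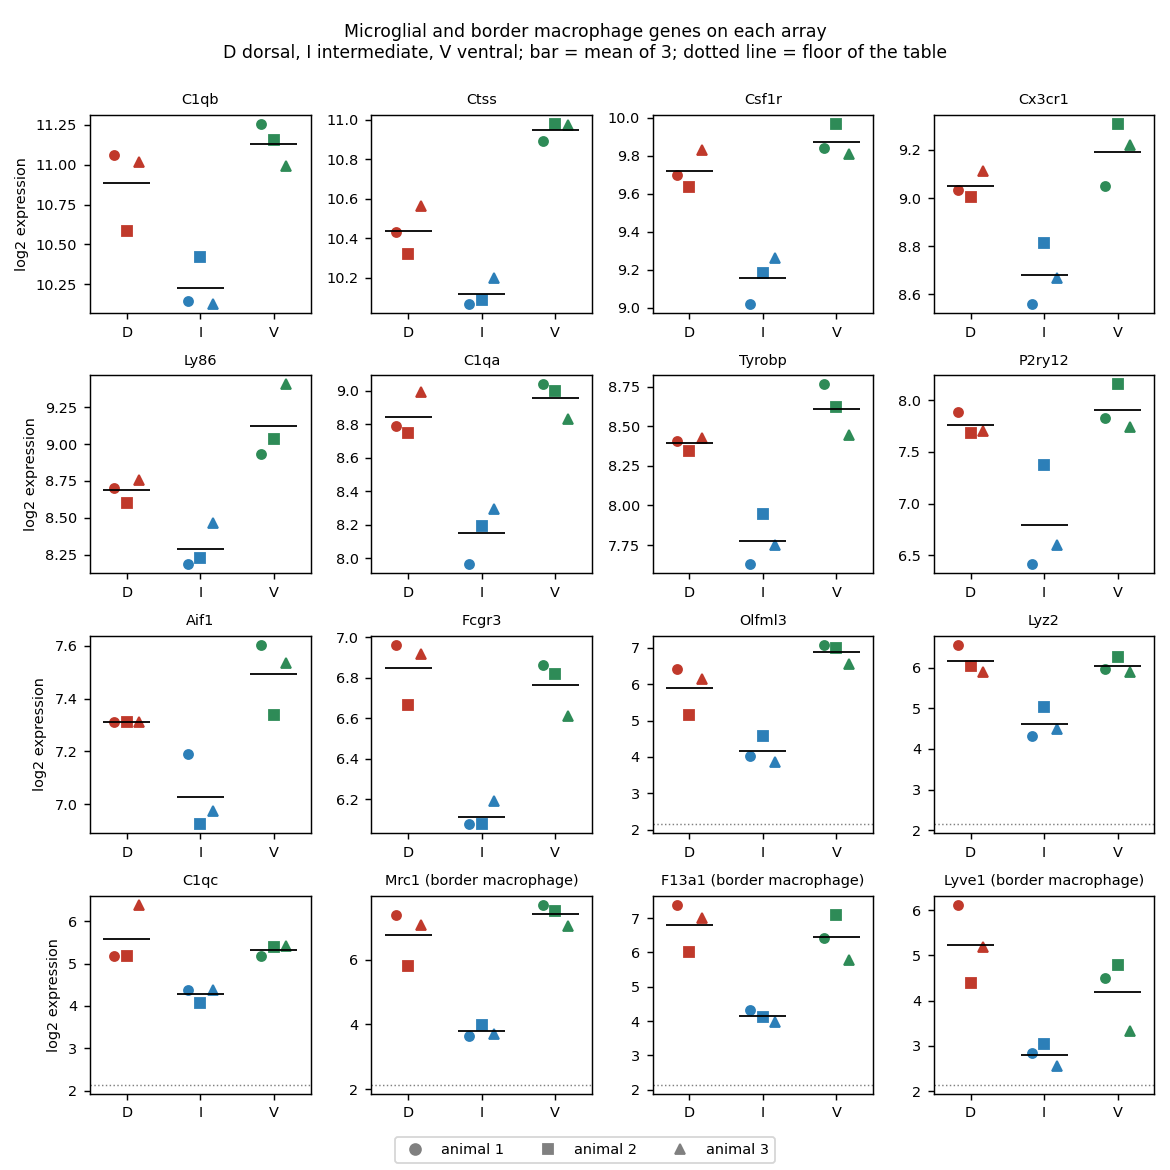
Log2 expression of the 16 members called lower in intermediate than in dorsal pieces, with the 3 animals as symbols (circle, square, triangle) by region (D, I, V), bars at the region mean and the floor of 2.15 as a dotted line where in range. The intermediate points of Mrc1 lie at 3.65 to 3.99, below dorsal points at 5.82 to 7.38 and ventral points at 7.02 to 7.69.

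Among complement genes, the C1q chains form the recognition unit that microglia make. C1qb read 11.06, 10.59 and 11.02 on the dorsal arrays of animals 1, 2 and 3, 10.14, 10.42 and 10.13 on the intermediate and 11.25, 11.15 and 10.99 on the ventral. All 3 intermediate values were below every other value, and C1qb fell by 0.66 ± 0.17 (SE) in intermediate against dorsal, 1.58-fold (adjusted p = 0.0447), and by 0.90 ± 0.17 against ventral, 1.87-fold (adjusted p = 0.0104). C1qa read 8.79, 8.75 and 8.99 dorsally, 7.96, 8.19 and 8.29 in the intermediate piece and 9.04, 9.00 and 8.83 ventrally. It fell by 0.69 ± 0.12 against dorsal (adjusted p = 0.0131) and by 0.81 ± 0.12 against ventral (adjusted p = 0.0044). C1qc read 5.17, 5.18 and 6.38, then 4.37, 4.08 and 4.37, then 5.18, 5.38 and 5.42 in the same order of regions, and the dorsal array of animal 3 was far above the others. It fell by 1.31 ± 0.28 against dorsal (adjusted p = 0.0266) and by 1.06 ± 0.28 against ventral (adjusted p = 0.0327). The dimmer probe sets of C1qb gave the same direction, -0.76 and -0.43 against dorsal and -0.98 and -0.55 against ventral.

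Receptors for growth factor, chemokine and nucleotide signals followed. Csf1r, the receptor on which microglia depend to survive, read 9.70, 9.64 and 9.83 dorsally, 9.02, 9.19 and 9.26 in the intermediate piece and 9.84, 9.97 and 9.81 ventrally. It fell by 0.57 ± 0.08 against dorsal (1.48-fold, adjusted p = 0.0076) and by 0.72 ± 0.08 against ventral (1.64-fold, adjusted p = 0.0018), with no overlap of regions, and its 2 dimmer probe sets had differences of -0.45 and -0.44 against dorsal and of -0.66 and -0.58 against ventral. Cx3cr1, the receptor for the neuronal chemokine Cx3cl1, read 9.03, 9.00 and 9.11, then 8.56, 8.81 and 8.67, then 9.05, 9.31 and 9.22. It fell by 0.37 ± 0.07 (adjusted p = 0.0152) and 0.51 ± 0.07 (adjusted p = 0.0030) against dorsal and ventral. The dimmer probe set of Cx3cr1 lay at the floor, with a mean of 2.15, and gives no comparison. P2ry12, the ADP receptor that guides process movement, read 7.89, 7.68 and 7.70 dorsally, 6.41, 7.37 and 6.60 in the intermediate and 7.82, 8.15 and 7.74 ventrally. The intermediate array of animal 2 lay above the other intermediate arrays but below every dorsal and ventral one. P2ry12 fell by 0.96 ± 0.22 (adjusted p = 0.0335) and 1.11 ± 0.22 (adjusted p = 0.0131).

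P2ry13, a relative of P2ry12 on microglia, read 5.79, 5.85 and 5.88 dorsally and 5.04, 5.79 and 5.57 in the intermediate piece, and the ranges met. Its difference from dorsal was -0.37 ± 0.15 (adjusted p = 0.137) and it fell by 0.51 ± 0.15 against ventral (adjusted p = 0.0425). Gpr34, another receptor of this group that senses lysophospholipid, read 7.90, 7.44 and 7.66, then 7.09, 7.66 and 6.76, then 7.66, 8.25 and 8.30, with overlap in both comparisons. Its differences were -0.50 ± 0.31 (adjusted p = 0.319) and -0.90 ± 0.31 (adjusted p = 0.0689), and neither was called.

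The next members carry signals of activating receptors inward. Tyrobp, the adaptor of Trem2 and related receptors, read 8.41, 8.35 and 8.42 dorsally, 7.63, 7.95 and 7.75 in the intermediate piece and 8.77, 8.62 and 8.44 ventrally. It fell by 0.62 ± 0.11 (adjusted p = 0.0169) and by 0.83 ± 0.11 (adjusted p = 0.0036). Its partner Trem2 was near the floor, at 2.20 to 2.24, and gives no comparison. Fcgr3, a low-affinity receptor for antibody, read 6.96, 6.66 and 6.92, then 6.07, 6.08 and 6.19, then 6.86, 6.82 and 6.61. It fell by 0.74 ± 0.10 against dorsal (adjusted p = 0.0078) and by 0.65 ± 0.10 against ventral (adjusted p = 0.0060). Fcer1g, the adaptor of Fc receptors, had intermediate values of 6.37, 6.48 and 6.48 and dorsal values of 6.48, 6.37 and 6.48. Many of its values were identical, and its differences of 0.00 ± 0.09 and -0.14 ± 0.09 were not called.

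Lysosomal and secreted members differed widely in size. Lyz2, lysozyme of macrophages, read 6.56, 6.05 and 5.89 dorsally, 4.31, 5.03 and 4.49 in the intermediate piece and 5.96, 6.26 and 5.89 ventrally. It fell by 1.56 ± 0.24 (2.94-fold, adjusted p = 0.0102) and by 1.43 ± 0.24 (2.69-fold, adjusted p = 0.0074). Ctss, the cysteine protease cathepsin S, read 10.43, 10.32 and 10.56, then 10.07, 10.08 and 10.20, then 10.89, 10.98 and 10.98. Its standard error was the smallest of the 24 members with a mean of 3 or more. The fall of 0.32 ± 0.05 against dorsal (adjusted p = 0.0105) was small, while that of 0.83 ± 0.05 against ventral (adjusted p = 0.0004) was 1.78-fold. Laptm5, a lysosomal membrane protein, read 10.03, 9.80 and 10.05 dorsally and 9.64, 9.70 and 9.48 in the intermediate piece, so that the groups did not overlap, but its difference of -0.35 ± 0.10 had an adjusted p of 0.065. Against ventral it fell by 0.53 ± 0.10 (adjusted p = 0.0121), and 2 dimmer probe sets had differences of -0.17 and 0.15 from dorsal and of -0.15 and -0.08 from ventral. Mpeg1, a pore-forming protein of macrophage vesicles, fell by 0.43 ± 0.13 against ventral (adjusted p = 0.0485), close to the threshold, and differed by -0.14 ± 0.13 from dorsal. Cd68 was near the floor on most arrays.

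Surface members and others of various roles followed. Olfml3, a secreted protein enriched in microglia, read 6.42, 5.14 and 6.13 dorsally, 4.02, 4.59 and 3.86 in the intermediate piece and 7.09, 6.98 and 6.55 ventrally, and the largest fall of a microglial member was its 2.71 ± 0.41 against ventral (6.56-fold, adjusted p = 0.0048). Against dorsal it fell by 1.74 ± 0.41 (adjusted p = 0.0337). Ly86, a partner of the Toll-like receptor relative Cd180, read 8.70, 8.60 and 8.75, then 8.19, 8.23 and 8.46, then 8.93, 9.04 and 9.40. It fell by 0.39 ± 0.08 (adjusted p = 0.0213) and by 0.83 ± 0.08 (adjusted p = 0.0011). Aif1, the actin-binding protein known as Iba1, read 7.31 on each dorsal array, 7.19, 6.92 and 6.97 in the intermediate piece and 7.60, 7.34 and 7.54 ventrally. Its fall of 0.28 ± 0.07 against dorsal (adjusted p = 0.0338) rests on 3 identical dorsal values, and against ventral it fell by 0.46 ± 0.07 (adjusted p = 0.0041). Cd53, a tetraspanin of leukocytes, fell by 0.40 ± 0.09 against ventral (adjusted p = 0.0212) and differed by -0.22 ± 0.09 from dorsal (adjusted p = 0.160). Ptprc, or CD45, read 3.10 to 3.46 in the intermediate piece against 3.20 to 3.78 dorsally and 3.71 to 4.31 ventrally, and its differences of -0.30 ± 0.25 (adjusted p = 0.462) and -0.66 ± 0.25 (adjusted p = 0.0948) were not called. Selplg, the selectin ligand, read 5.54 on most arrays, with many identical values, and differed by -0.02 ± 0.10 and -0.21 ± 0.10. Itgb2 was above the floor on only 2 arrays, both ventral.

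**Figure D2:**
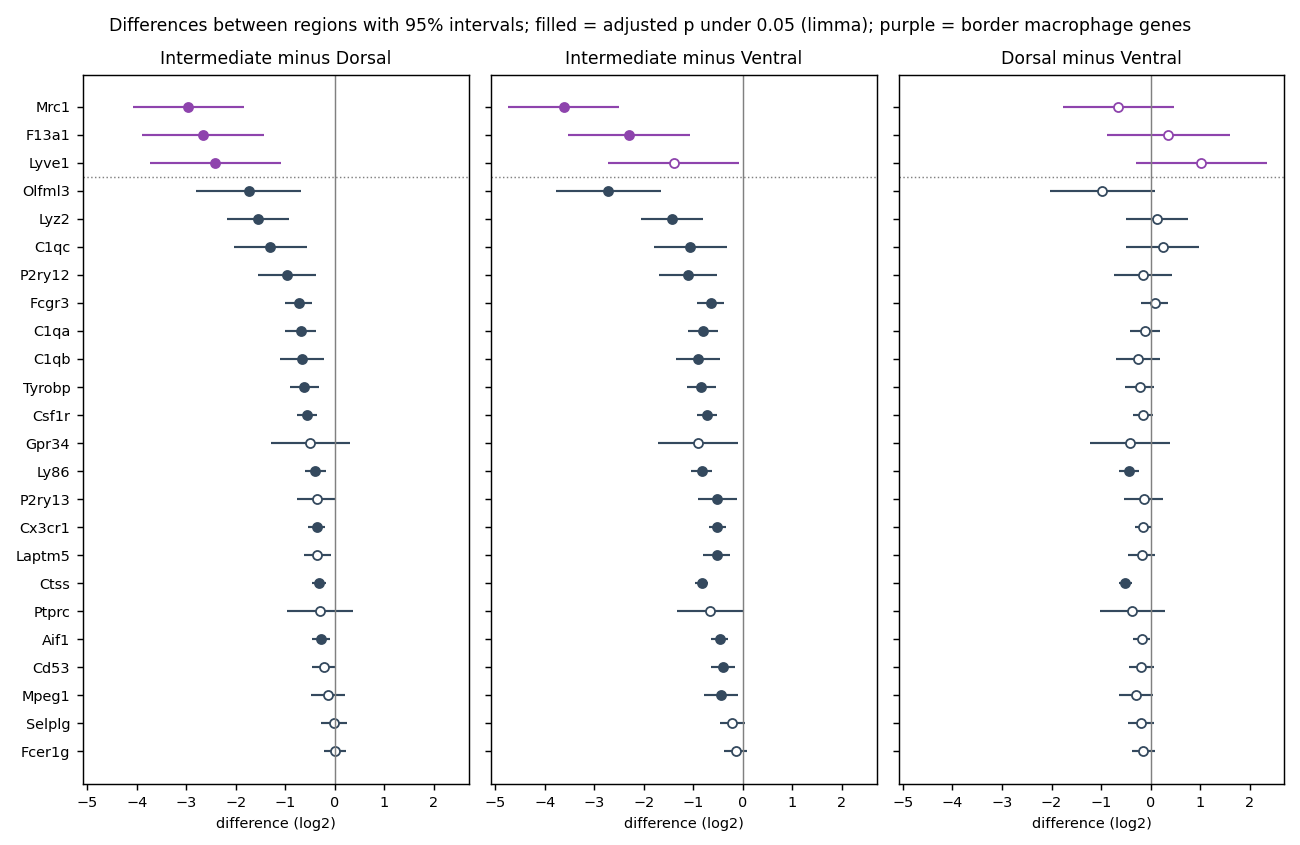
Differences between regions (log2) with 95% intervals from limma for the 24 members with a mean of 3 or more, border macrophage genes in purple above the dotted line; filled points have an adjusted p under 0.05. Mrc1, F13a1 and Lyve1 lie at -2.96, -2.67 and -2.42 in the panel of intermediate minus dorsal.

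The 3 measurable border macrophage genes had the largest differences of the 35 in the comparison with dorsal. Against ventral this order did not hold: Olfml3, at -2.71, lay beyond F13a1 and Lyve1, and Lyz2, at -1.43, beyond Lyve1. Mrc1, a scavenger receptor for mannosylated ligands, read 7.38, 5.82 and 7.06 dorsally, 3.65, 3.99 and 3.72 in the intermediate piece and 7.69, 7.49 and 7.02 ventrally. It fell by 2.96 ± 0.43 against dorsal (7.80-fold, adjusted p = 0.0083) and fell by 3.61 ± 0.43 against ventral (12.2-fold, adjusted p = 0.0023). F13a1, a subunit of the clotting factor that macrophages also make, read 7.39, 6.02 and 7.002, then 4.32, 4.11 and 3.98, then 6.43, 7.10 and 5.79. It fell by 2.67 ± 0.47 (6.35-fold, adjusted p = 0.0149) and by 2.30 ± 0.47 (4.94-fold, adjusted p = 0.0138). Lyve1, the hyaluronan receptor, read 6.12, 4.40 and 5.18, then 2.84, 3.04 and 2.56, then 4.49, 4.78 and 3.34. It fell by 2.42 ± 0.51 against dorsal (5.35-fold, adjusted p = 0.0245), and its difference of -1.39 ± 0.51 from ventral had an adjusted p of 0.0812. The dimmer probe set of Lyve1, with a mean of 2.71, near the floor, differed by -0.51 from dorsal and by -0.14 from ventral. In absolute size, the differences of Mrc1, F13a1 and Lyve1 from dorsal exceeded those of 99.7%, 99.6% and 99.4% of all genes tested. The same figure was 98.6% for Olfml3, 98.2% for Lyz2 and 76.3% for Ctss. No test compared the 4 border with the 29 microglial genes, because the lists were chosen with these results known. Cd163 had 1 value off the floor, 2.62 on a ventral array, and shows nothing about the regions. Dorsal animal 2 was the lowest dorsal array for all 3 measured border genes and for Olfml3, and Pf4 and Dcn, named below, were lowest there too.

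**Figure D3:**
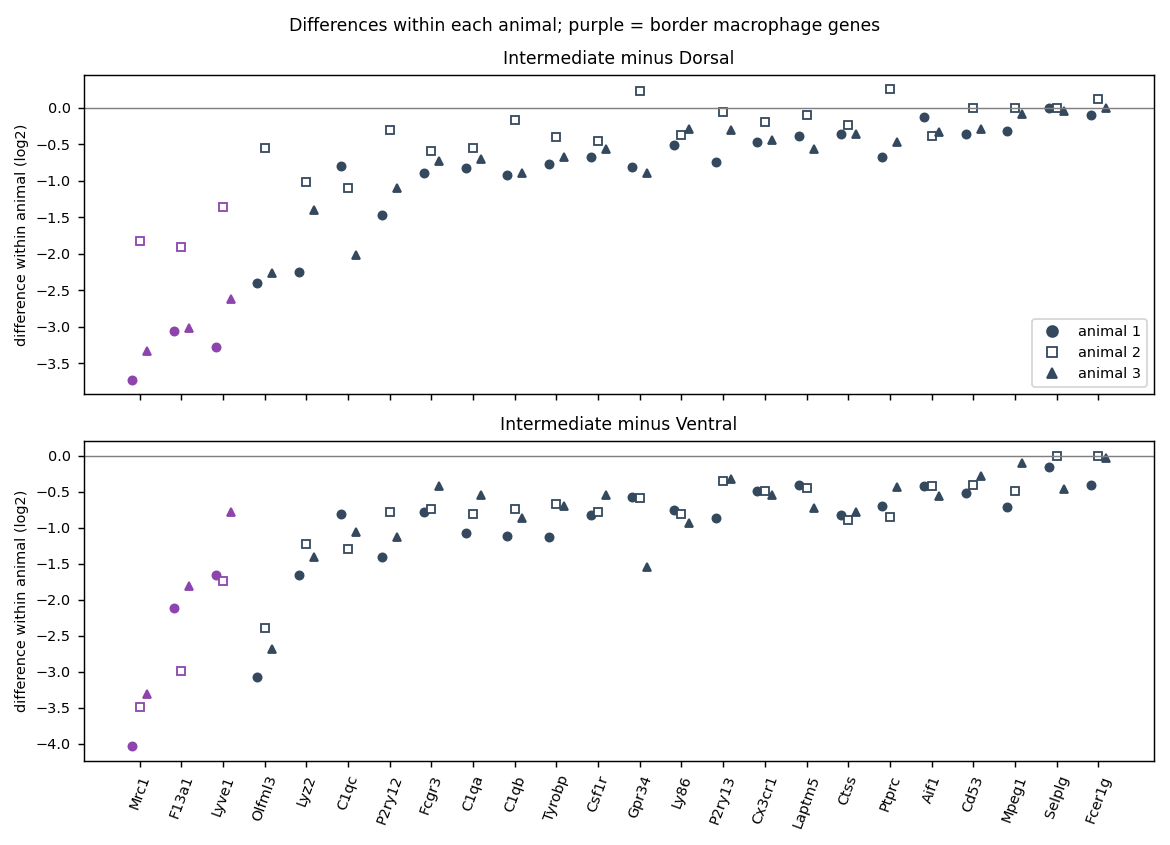
Differences within each animal (log2) for the 24 members with a mean of 3 or more, intermediate minus dorsal above and intermediate minus ventral below, with border macrophage genes in purple and animals as symbols (open square for animal 2). For Mrc1 the 3 animals give -3.73, -1.82 and -3.34 against dorsal and -4.04, -3.50 and -3.30 against ventral.

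Within animals, 19 of 33 members were lower in the intermediate than in the dorsal piece of all 3 animals (16 of 29 microglial and 3 of 4 border genes), and 0 were higher in all 3. Of all 13959 genes tested, 24.2% were lower in all 3 and 3655 were higher in all 3. Against ventral it was 25 of 33 (22 and 3) and 0, where 33.2% of all genes were lower and 4286 were higher. The 22 include genes near the floor, such as Irf8. Of the 21 microglial genes with a mean of 3 or more, 20 were lower than ventral in all 3 animals. In animal 2, Gpr34, Ptprc and Fcer1g had positive differences from dorsal, of 0.23, 0.25 and 0.11.

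Few members were called between dorsal and ventral pieces. Dorsal minus ventral, 2 of 33 members were lower (Ctss and Ly86) and 0 higher, where 28.2% of all genes were lower and 24.5% higher (52.8% in all); at an unadjusted p under 0.05, 3 were lower and 0 higher. Ctss fell by 0.51 ± 0.05 (adjusted p = 0.0010) and Ly86 by 0.44 ± 0.08 (adjusted p = 0.0080), and all 3 dorsal values of each lay below its 3 ventral values. In 11 of 33 members the dorsal value was the lower in all 3 animals, which held for 35.8% of all genes. The median difference was -0.15 over the microglial and 0.10 over the 4 border genes, and 0.36 over the 3 border genes with a mean of 3 or more. Lyve1 had a difference of 1.03 ± 0.51 (adjusted p = 0.158, interval -0.29 to 2.35), and Mrc1 one of -0.65 ± 0.43 (adjusted p = 0.278). Without animal 2, Lyve1 and F13a1 were called higher in dorsal pieces, by 1.73 (adjusted p = 0.0339) and 1.08 (adjusted p = 0.0139), while Ly86 was no longer called (adjusted p = 0.0991) and 2 members were lower. Without the dorsal array of animal 2 alone, Lyve1 was called higher, at 1.65 (adjusted p = 0.0136), and 3 members were lower, and without the ventral array of animal 3, 4 were lower. The moderated F test over the 3 regions called 18 of 33 members, a share below the 58.0% of all genes that it called. It called 5 members without animal 1 and 6 without animal 3. Over the fits that left out an animal or array it called 5046 to 7633 of the 13959 genes tested. The shares of members without animal 1 and without animal 3 were below the lowest of these.

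Genes of the coverings of the cord and of peripheral nerve moved with these members. Of 14 meningeal and fibroblast genes tested, 9 were lower and 1 higher in the intermediate piece against dorsal and 12 lower against ventral. Their summed level is the sum of the log2 values of the genes tested, and so no total of expression. It was 107.6 to 120.6 dorsally, 87.5 to 90.6 in the intermediate piece and 117.0 to 120.9 ventrally, and Slc47a1 was at the floor. Ogn fell by 5.22 ± 0.54 and Dcn, which encodes the matrix protein decorin, by 3.99 ± 0.42 against dorsal. The dorsal array of animal 2 had the lowest dorsal median of this list too, 0.02 above the mean over arrays, where the highest dorsal array stood at 0.89. Of 9 Schwann and peripheral myelin genes, 5 were lower in the intermediate than in the dorsal piece and 5 lower and 1 higher than in the ventral, with summed levels of 86.4 to 97.8, 72.1 to 73.6 and 88.8 to 90.6. Pmp2, Pmp22 and Egr2 fell by 6.20, 4.09 and 3.94 against dorsal, while Gfap, Ncam1, Sox10 and Mbp of that list are also made by cells of the cord. What part the coverings and nerve roots held in the pieces has in the differences of the border or microglial members was not tested.

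Endothelial and mural, oligodendrocyte and astrocyte genes differed from the members in the comparison with dorsal, but not in direction against ventral. Of 14 endothelial and mural genes, 0 were lower and 4 higher (Acta2, Flt1, Cspg4 and Rgs5) in the intermediate than in the dorsal piece, and 12 were lower than in the ventral; by unadjusted p, 1 was lower and 5 higher than dorsal. Of 11 oligodendrocyte genes, 0 were called against dorsal, also at an unadjusted p under 0.05, and 10 were lower than ventral. Of 10 astrocyte genes, 6 were higher and 1 lower than dorsal and 8 were lower than ventral. Against ventral, most genes of these 3 lists were thus lower in the intermediate piece, alongside the microglial members, and their part in that result was not tested. Markers of other leukocytes were at or near the floor: of 22 with a probe set, 20 read the floor on all 9 arrays, and 0 of the 5 tested were called in any comparison, also at an unadjusted p under 0.05.

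**Figure D4:**
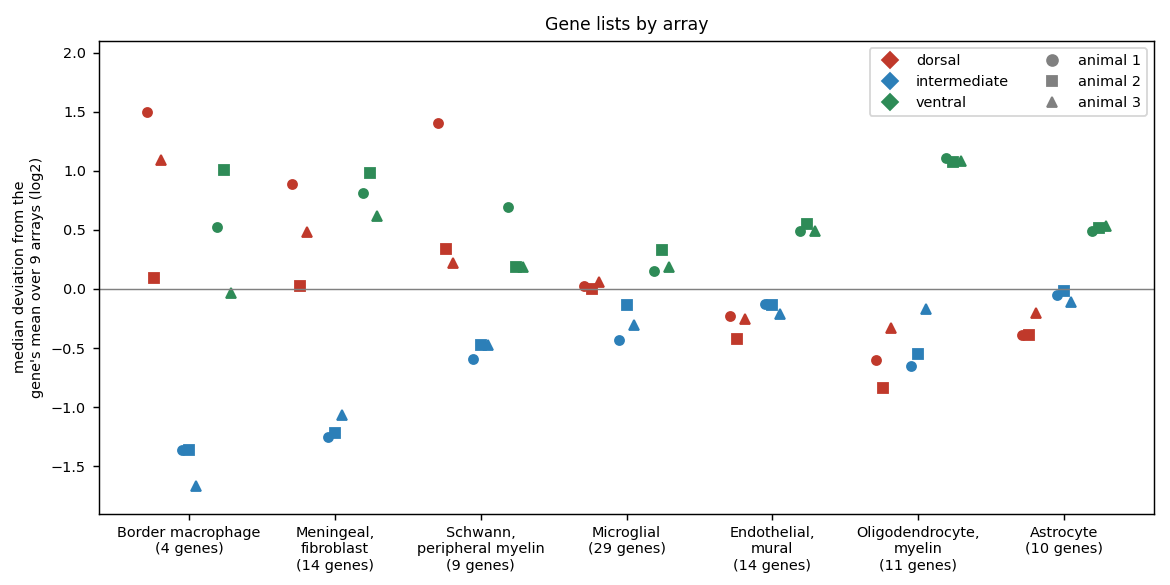
Median over the genes of each list of the deviation from the gene's mean over the 9 arrays (log2), 1 point per array, colours for regions and symbols for animals. Border macrophage genes lie at -1.67 to -1.36 on intermediate arrays, meningeal genes at -1.25 to -1.07 and microglial genes at -0.43 to -0.14.

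Other genes known from these cells were read beside the members. Of 29 further microglial genes tested, 16 had a mean below 3, near the floor. Of the 29, Fcrls, an Fc receptor relative of microglia, was lower (by -0.45 ± 0.08, adjusted p = 0.0118) and Itgb5 higher (0.36 ± 0.05) than in dorsal pieces, and 7 were lower and 2 higher than in ventral ones. Several of these, such as Coro1a, Sirpa and Lcp1, are made by neurons or other cells too. Of 13 further border macrophage genes tested, 2 were lower and 0 higher than in dorsal pieces, also 0 higher at an unadjusted p under 0.05, and 4 were lower and 0 higher than in ventral, with a median difference of 0.00 and -0.02. Of the 13, 7 had a mean below 3, near the floor. Pf4, a platelet and border macrophage chemokine, read 7.58, 5.85 and 6.86 dorsally, 3.73, 4.31 and 3.74 in the intermediate piece and 7.33, 7.57 and 6.91 ventrally. Pf4 differed by -2.84 ± 0.49 from dorsal (adjusted p = 0.0139) and -3.34 ± 0.49 from ventral (adjusted p = 0.0045). Maf, which neurons of the dorsal horn also make, fell by 2.00 ± 0.11 against dorsal. Against ventral, Stab1, Colec12 and Dab2 were lower as well, with differences of -1.22, -1.18 and -1.06.

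Genes that act on these receptors or on complement moved in both directions. Of 10 ligands, 1 was lower (Csf1) and 1 higher (Gas6) than in dorsal pieces and 3 lower and 3 higher than in ventral. Csf1, which acts on Csf1r, fell in the intermediate piece by 0.45 ± 0.12 against dorsal (adjusted p = 0.0461) and by 1.42 ± 0.12 against ventral, and Il34, the other Csf1r ligand, was near the floor. Cx3cl1, the ligand of Cx3cr1, was higher in intermediate than in ventral pieces by 1.24 ± 0.10 and differed by 0.22 ± 0.10 from dorsal (adjusted p = 0.171). Of 11 complement genes other than C1q, 4 were lower (Serping1, Csmd1, Sez6 and Cfp) and 0 higher than in dorsal pieces (1 higher at an unadjusted p under 0.05) and 1 lower and 4 higher than in ventral. Serping1, the C1 inhibitor, which fibroblasts also make, differed by -2.10 ± 0.26 and -1.85 ± 0.26, while Csmd1 and Sez6 are complement-control proteins that neurons make. Of 10 tested genes of the phagocytic postnatal state, 4 were higher (Axl, Igf1, Apoe and Fabp5) and 0 lower in the intermediate than in the dorsal piece, the opposite direction to the members, and 6 were higher and 0 lower at an unadjusted p under 0.05. Against ventral, 5 of the 10 were lower and 1 higher. Igf1 was that higher gene, by 0.63 ± 0.07, and exceeded dorsal by 0.28 ± 0.07; astrocytes, neurons or other cells make several genes of this list too. Gpnmb, Itgax, Lgals3 and Cst7 of the same list read the floor on all arrays and were not tested. Of 9 cytokine and chemokine genes tested, 0 were called against dorsal, where 1 was higher at an unadjusted p under 0.05, and Il18, Tgfa and Cxcl16 were lower than in ventral pieces. Il1b and Ccl2 were near the floor, and Tnf read the floor on all arrays.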

How the data were processed

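The authors' deposited file holds 1 expression value per probe set on every array, read as log2 expression because the values span 2.15 to 16.3; the scale is stated in no label, and the summary and normalisation method was not given in the sources used here. Per the labels' protocols, 500 ng of total RNA was biotin-labelled by in vitro transcription with a 3′ kit of Affymetrix. Of 45037 probe sets, 34945 carry a single symbol in the platform annotation, and each gene took the probe set with the highest mean.

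Genes with a mean at or above the 30th percentile over probe sets were tested (13959 of 18193). limma 3.58.1 in R 4.3.3 fitted region with the animal as a fixed block to all 9 arrays, leaving 4 residual degrees of freedom. Benjamini-Hochberg adjustment ran over all genes tested, with a call at 0.05; SE and 95% intervals are limma's, and the fit was tested on simulated data. The titles name the animal of each array. Deviations from region means correlated at -0.066 to 0.246 in the 9 pairs of arrays from the same animal and at -0.18 to 0.161 in the 18 other pairs. The number of arrays limits the precision. A further 23 alternatives were run.

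The members and the comparison lists were chosen with earlier results of these data known. All 35 members are accounted for; from other lists the called genes with the largest differences are named, at most 4 in a comparison, or all where 5 or fewer were called. That rule was not carried through for every list: further called genes, and other lists between dorsal and ventral pieces, are given by count or left out. Other genes named from these lists (those near the floor, those given with a difference that was not called, and those also made by other cells) were chosen after their values were seen. The motifs are PU.1, an ETS-IRF composite and TATA. The packages data.table (1.17.8) and pandas (2.3.3) handled the tables, and matplotlib 3.10.9 in Python 3.11.15 drew the figures.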

Additional observations from a re-analysis of the deposited data

How the results depend on the processing

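Across 23 alternatives, 0 called differences of single members reversed direction. Their calls gave 830 values, of which 649 stayed past the threshold and 181 did not. Differences not called gave 1309 values, of which 35 passed it. The sign of an uncalled difference was not that of the main fit in 157 values, some of them differences of about 0. Called members in intermediate minus dorsal (16) ranged from 0 to 16 over fits that left out an animal or array, the microglial ones (13) from 0 to 13 and the border ones (3) from 0 to 3, and numbered 5, 4 and 1 when only those regions were fitted; of all genes, 4202 became 1464 to 3707, and 2105 with only those regions. With only those regions, members and all genes were thus called at close to the same share. In intermediate minus ventral the count of 19 ranged from 8 to 20, the microglial 17 from 7 to 17, the border 2 from 1 to 3, and 6731 genes became 4200 to 6658. In dorsal minus ventral the 2 called members, both microglial and lower, became 2 to 4 on leaving out arrays, 4 with arrays centred on their medians and 1 with only those regions; lower microglial members gave the same numbers, and members higher ranged from 0 to 2, and 7364 genes from 5234 to 7125. The F test's 18 members and 8101 genes ranged from 5 to 19 and 5046 to 7633.

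The microglial median of -0.32 against dorsal ranged from -0.40 to -0.25 over these fits and was -0.57 among genes with 9 distinct values above the floor. Against ventral, -0.53 ranged from -0.61 to -0.505 and was -0.76 with a filter at the 50th percentile, -0.76 at a mean of 6, -0.81 with 9 distinct values and -0.46 with the mean of probe sets. The dorsal minus ventral median of -0.15 ranged from -0.20 to -0.058. For border genes, the medians of -2.54, -1.85 and 0.10 ranged from -3.13 to -2.23, from -2.19 to -1.36 and from -0.15 to 0.54; no border gene has a value under the filter at a mean of 6. Against ventral, Csf1r, Ctss, Ly86, Mrc1 and Tyrobp were called under every alternative that gave them a value, and against dorsal 0 of the 16 were. The cause of these shifts was not tested.

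Without the animal as a replicate block, 16, 20 and 2 members were called lower in the 3 comparisons. The share of all genes called in that fit is not given here, so these counts do not set the members apart from other genes. Ly86 against dorsal and P2ry13 against ventral were then lost (adjusted p = 0.0649 and 0.0543), and Laptm5 against dorsal (0.0221) and Gpr34 and Ptprc against ventral (0.032 and 0.0414) were gained. With 3 arrays per region and 4 residual degrees of freedom, values at or near the floor limit what can be seen of 11 members, and identical values on some arrays that of 8 others, 5 of them called somewhere: Aif1, C1qc, Lyz2, Mpeg1 and P2ry13.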
